A study of Mus musculus with 4 samples.

Results

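Brown adipose tissue (BAT) of 4 mice was examined for the nuclear genes that encode complex III, complex IV, complex V and cytochrome c of the respiratory chain. Members were chosen by name alone, as gene symbols that start with Uqcr, Atp5 or Cox followed by a digit from 4 to 8, together with Cyc1 and Cycs. Of 46 rows with such a name, after 11 rows with pseudogene names or the name Cox6c2 had been dropped, 43 had a mean above 1 FPKM in at least one genotype, out of 12877 rows that passed this limit and 55387 rows in all. FPKM counts fragments relative to transcript length in kilobases and to the total mapped in a library, and can therefore be compared between genes of different length. The 43 members comprise 9 genes of complex III, 16 of complex IV, 17 of complex V and 1 gene for cytochrome c, and each of them had a mean above 1 FPKM in both genotypes and was above 0 in every library. The 3 rows below the limit were Cox7b2 and Cox8c, which were listed at 0 in all 4 libraries, and a second row named Atp5o, which was at 0.276 FPKM in Sox4f/f mouse 1 and listed at 0 elsewhere.

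Complex III (ubiquinol-cytochrome c reductase) passes electrons from ubiquinol to cytochrome c, and complex IV (cytochrome c oxidase) passes them on to oxygen. Both pump protons out of the mitochondrial matrix. Complex V (ATP synthase) lets the protons back in to make ATP, whereas in brown fat the uncoupling protein Ucp1 lets them back in as heat. Brown fat is known for a very dense respiratory chain and for relatively little ATP synthase, which is limited by the supply of its membrane ring subunit c. Several subunits of complex IV exist as a ubiquitous form and a form typical of heart and skeletal muscle, and brown fat is known to use some of the latter.

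The 4 male C57BL/6 mice were 15 weeks old and kept at room temperature. There were 2 control littermates with floxed Sox4 alleles (Sox4f/f, named wild type in the sample labels) and 2 mice labelled Sox4-MKO, which carry the same floxed alleles and a Cre recombinase under control of Myf5. This promoter is active in the lineage that forms both brown adipocytes and skeletal muscle, so the deletion is not restricted to brown fat, and the labels call the material brown adipocytes although whole tissue was extracted. Depth was estimated at 12100000 to 16300000 fragments per library. Sox4, the targeted gene, was at 1.98 and 1.06 FPKM in Sox4f/f mice 1 and 2 and at 0.981 and 3.06 FPKM in those labelled Sox4-MKO 1 and 2. The ranges overlapped (log2 fold change 0.20 ± 0.43 (SE), adjusted p = 0.843), so the transcript level did not separate the labels. The study reports much lower SOX4 protein in BAT of Sox4-MKO mice at a younger age, which these libraries cannot show. Every direction given here is that of the labels. Ucp1 was present in each library, at 1935 and 1814 FPKM in the Sox4f/f mice and at 734 and 1105 FPKM in those labelled Sox4-MKO, and the summed level of 6 general adipocyte genes lay between 9003 and 11772 FPKM. The summed level of 12 skeletal muscle genes was 253 and 946 FPKM in the Sox4f/f mice but 17925 and 3125 FPKM in those labelled Sox4-MKO, and 7 macrophage genes summed to 188 and 280 FPKM against 387 and 384 FPKM. The summed level of 4 white adipocyte genes was 177 and 151 FPKM in the Sox4f/f mice and 512 and 606 FPKM under the label Sox4-MKO. All 4 genes, such as Retn at 137 and 111 against 425 and 510.1 FPKM, were higher without overlap, as were 21.7% of all rows tested.

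Most members had lower mRNA levels under the label Sox4-MKO than in Sox4f/f. Summed over the 43 members, the level was 42313 and 41884 FPKM in Sox4f/f mice 1 and 2, and 33481 and 28619 FPKM in those labelled Sox4-MKO 1 and 2. Differences between the genotypes were tested with limma on log2(FPKM + 1) over all 12877 rows, and a gene was called at an unadjusted p under 0.05, the limit stated in the methods of the study. By this rule 21 members were lower, against 8.28% of all rows tested, and 3 were higher, against 7.95% of all rows. In 33 members both libraries labelled Sox4-MKO lay below both Sox4f/f libraries, which was the case in 29.6% of all rows, and in 3 members both lay above, which was the case in 21.7% of all rows. The other 7 members overlapped. By mean, 39 members were lower and 4 higher, against 7206 and 5671 of all 12877 rows. The median log2 fold change of the members was -0.39, with a median of -0.051 over all rows tested.

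With 2 mice per genotype no member passed the Benjamini-Hochberg adjustment over all rows. The smallest adjusted p of a member in limma was 0.196, for Cox8b, and 0% of all rows were called by that rule (0 of 12877, against 1066 lower and 1024 higher rows at an unadjusted p under 0.05). The p-values measure only the spread between the 2 mice of each genotype, drawn towards a prior fitted over all rows. Without that prior, 10 members were called lower and 0 higher, against 935 and 553 of all 12877 rows. Of the members, 11 belong to a heat map that the study drew from these same libraries, and their 7 calls are not independent evidence of a direction. Among the 32 members outside that heat map, 28 were lower and 4 higher in mean, and the median log2 fold change was -0.38. Of these 32, 14 were called lower and 3 higher, against 8.28% and 7.95% of all rows. In whole tissue, fewer cells of a type and less RNA per cell cannot be told apart.

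The size of the difference depended on how the libraries were scaled. With each library rescaled to the same sum of FPKM, 33 of the 43 members were lower in mean, 5 were called lower (2.56% of all rows) and their median was -0.18, while the median of all rows moved to 0.13. After quantile normalization 36 members were lower, 2 were called (8.88% of all rows) and the median was -0.17. When mitochondrially encoded genes and Ucp1 were left out of the sum, 37 members were lower and 20 were called (5.79% of all rows). The distance between the median of the members and that of all rows was -0.34 as deposited, -0.31 with equal sums, -0.33 with equal sums without mitochondrially encoded genes and Ucp1, and -0.092 after quantile normalization.

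**Figure D1:**
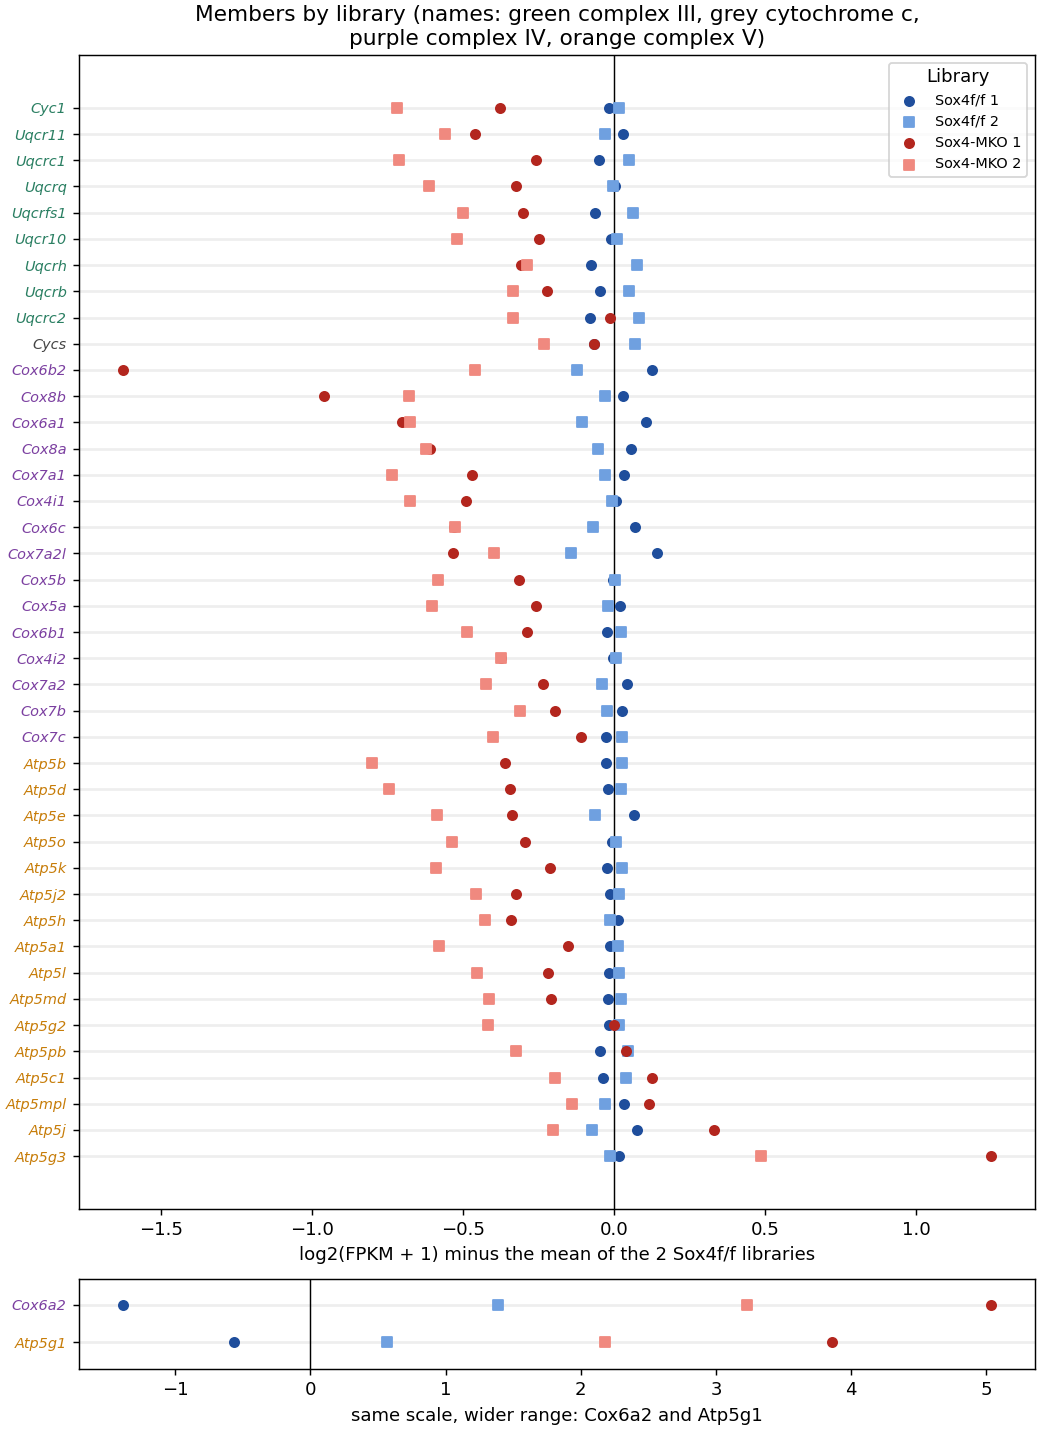
Level of each of the 43 members in each library, as log2(FPKM + 1) minus the mean of the 2 Sox4f/f libraries, with genes ordered by complex and by log2 fold change and with a wider axis in the lower panel for Cox6a2 and Atp5g1. Blue points are Sox4f/f mice 1 and 2 and red points the libraries labelled Sox4-MKO 1 and 2. In 33 members both red points lie left of both blue points, and in Atp5g3, Atp5g1 and Cox6a2 both lie to the right.

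All 9 members of complex III had a lower mean in the libraries labelled Sox4-MKO. Their log2 fold changes ranged between -0.55 and -0.17, and the median was -0.40. Of them, 5 were called lower (8.28% of all rows) and 8 were lower without overlap between the genotypes (29.6% of all rows). Cyc1, the cytochrome c1 subunit that hands electrons to cytochrome c, was at 798 and 816 FPKM in the Sox4f/f mice and at 621 and 489.8 FPKM in those labelled Sox4-MKO (log2 fold change -0.55 ± 0.16 (SE), adjusted p = 0.241). Uqcr11, a small supernumerary subunit, was at 1317 and 1262 against 937 and 875 FPKM (-0.51 ± 0.12, adjusted p = 0.214). Both genes were called lower, and in both the lowest Sox4f/f value lay well above the highest value labelled Sox4-MKO. The core protein gene Uqcrc1 was at 825 and 883 against 713 and 521 FPKM (-0.49 ± 0.19, adjusted p = 0.314), also without overlap, but it was not called, and the 2 libraries labelled Sox4-MKO lay far apart. The gene of highest level was Uqcr10, another small subunit, at 1519 and 1540 against 1286 and 1065 FPKM (-0.39 ± 0.15, adjusted p = 0.307), and it was called lower.

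The smallest differences in complex III were found in Uqcrh, Uqcrb and Uqcrc2. Uqcrh, the hinge protein that holds cytochrome c1, was at 765 and 850.2 against 651 and 659.6 FPKM and was not called (adjusted p = 0.326). Uqcrb, a subunit at the ubiquinone site, was at 834 and 892 against 739 and 683 FPKM and was not called either (adjusted p = 0.345). Neither gene overlapped between the genotypes. Uqcrc2, the second core protein gene, was at 476 and 533 against 499 and 399 FPKM and was the only one of the 9 that overlapped (log2 fold change -0.17 ± 0.16, adjusted p = 0.608), and its sign turned to 0.040 when the libraries were rescaled to equal sums. Uqcrq and the iron-sulfur protein gene Uqcrfs1 lay between these, at log2 fold changes of -0.47 and -0.40, and both were called.

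Cytochrome c itself, which shuttles between complexes III and IV, was not called in either direction. Cycs was at 203 and 223 FPKM in the Sox4f/f mice and 203 and 181 FPKM in those labelled Sox4-MKO. Sox4f/f mouse 1 and the library labelled Sox4-MKO 1 were at nearly the same level, so the genotypes overlapped (log2 fold change -0.15 ± 0.13, adjusted p = 0.579), and with equal sums the sign turned to 0.064. The difference between Cycs and the complex genes was not itself tested.

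Of complexes III to V, complex IV had the lowest median, at -0.46 on the log2 scale, although after quantile normalization it was -0.23, with -0.24 in complex III, and differences between complexes were not tested. Of its 16 members, 15 were lower in both libraries labelled Sox4-MKO than in both Sox4f/f libraries and 1, Cox6a2, was higher in both. These orders held in 29.6% and 21.7% of all rows. The calls numbered 10 lower and 1 higher, against 8.28% and 7.95% of all rows. Of the subunits with a single gene among the members, Cox6c, Cox5b and Cox5a were called lower, with log2 fold changes from -0.53 to -0.43. Cox7b was at 561 and 541 against 480.3 and 443 FPKM (-0.26 ± 0.12, adjusted p = 0.358) and Cox7c at 946 and 980.5 against 892 and 729.5 FPKM (-0.26 ± 0.15, adjusted p = 0.448). Neither of these 2 small subunits was called, and they kept the highest share of the Sox4f/f level among the lower members of complex IV, at 83.8% and 84.2%. Cox7a2l, known as a factor that assembles complexes III and IV into supercomplexes, was at 244 and 200.3 against 152 and 168 FPKM (-0.47 ± 0.15, adjusted p = 0.255) and was called lower.

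The subunit isoforms of complex IV allow the muscle-type and the ubiquitous form to be compared within a library. Cox8b, the form of subunit VIII found in heart, skeletal muscle and brown fat, was at 3317 and 3181 FPKM in the Sox4f/f mice and at 1670 and 2027 FPKM in those labelled Sox4-MKO. This is 56.9% of the Sox4f/f mean, with the smallest p of all members (log2 fold change -0.82 ± 0.15, adjusted p = 0.196). The ubiquitous form Cox8a fell too, from 2078 and 1925 to 1311 and 1299 FPKM (-0.62 ± 0.12, adjusted p = 0.207). Cox8b therefore made up 61.5% and 62.3% of the pair in the Sox4f/f mice and 56.0% and 60.9% in the libraries labelled Sox4-MKO, a shift of -3.41 percentage points carried mainly by the library labelled Sox4-MKO 1.

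Cox7a1, the muscle and brown fat form of subunit VIIa, was at 1047 and 1002 against 739 and 615 FPKM (-0.60 ± 0.14, adjusted p = 0.214) and was called lower. Its ubiquitous partner Cox7a2 was at 478 and 451 against 394 and 346 FPKM (-0.33 ± 0.13, adjusted p = 0.310) and was not called, with an unadjusted value just above the limit. The share of Cox7a1 in the pair was 68.7% and 69.0% in the Sox4f/f mice and 65.2% and 64.0% in the libraries labelled Sox4-MKO, a difference of -4.19 percentage points with little spread within each genotype. As with Cox8b, the muscle-type form held the greater part of the pair in every library and a smaller part in both libraries labelled Sox4-MKO.

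In the pair of subunit VIa the muscle-type form was the one that was higher. Cox6a1, the ubiquitous form, fell from 2803 and 2418 to 1598 and 1629 FPKM (-0.69 ± 0.14, adjusted p = 0.207), with no overlap. Cox6a2, the heart and skeletal muscle form (GRCm38, chr7:128205435-128206387, minus strand), was at 1.98 and 19.4 FPKM in the Sox4f/f mice and at 255 and 72.1 FPKM in those labelled Sox4-MKO. Each genotype was spread widely, but both values labelled Sox4-MKO lay above both others (4.13 ± 1.10, adjusted p = 0.229). Estimated from depth and transcript length, these levels rest on about 18, 161, 2202 and 800 fragments. The share of Cox6a2 in the pair was 0.0706%, 0.798%, 13.8% and 4.24% in Sox4f/f mice 1 and 2 and the libraries labelled Sox4-MKO 1 and 2, so Cox6a1 remained the main form in each library.

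Subunit IV has a second form, Cox4i2, that is known from lung and from low oxygen. Cox4i1 was at 2171 and 2149 against 1538 and 1350 FPKM (-0.58 ± 0.13, adjusted p = 0.214), whereas Cox4i2 was at only 4.75 and 4.79 against 3.45 and 3.45 FPKM (-0.37 ± 0.16, adjusted p = 0.343), on about 32 to 47 fragments. Its share of the pair stayed between 0.218% and 0.255%. Cox6b1, which lies where 2 complex IV units meet in the dimer, was at 1130 and 1168 against 941 and 819 FPKM (-0.39 ± 0.13, adjusted p = 0.273). Of these, Cox4i1 and Cox6b1 were called lower and Cox4i2 was not. Cox6b2, its testis-type form, was at 21.6 and 18.0 against 5.72 and 14.1 FPKM, the lowest log2 fold change of all members at -1.04 ± 0.41, and was not called (adjusted p = 0.318), with the 2 libraries labelled Sox4-MKO far apart. Its share of the pair was 1.88% and 1.52% in the Sox4f/f mice and 0.604% and 1.69% in the libraries labelled Sox4-MKO, which overlapped.

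With 2 mice per genotype, the exact permutation test over libraries (two-sided) cannot give a p below 0.333. It gave this value for the shares of Cox6a2, Cox7a1, Cox8b and Cox4i2, whose genotypes did not overlap, and 0.667 for the share of Cox6b2, so at this number of animals the test says nothing about whether the shares differ. Multiplying a library by 1 factor leaves such shares as they are, but quantile normalization is no such factor, and shares were not computed after it. There the log2 fold changes were -0.14 for Cox8b and -0.23 for Cox8a, and -0.19 for Cox4i1 and -0.49 for Cox4i2, in both pairs the reverse of their order as deposited.

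**Figure D2:**
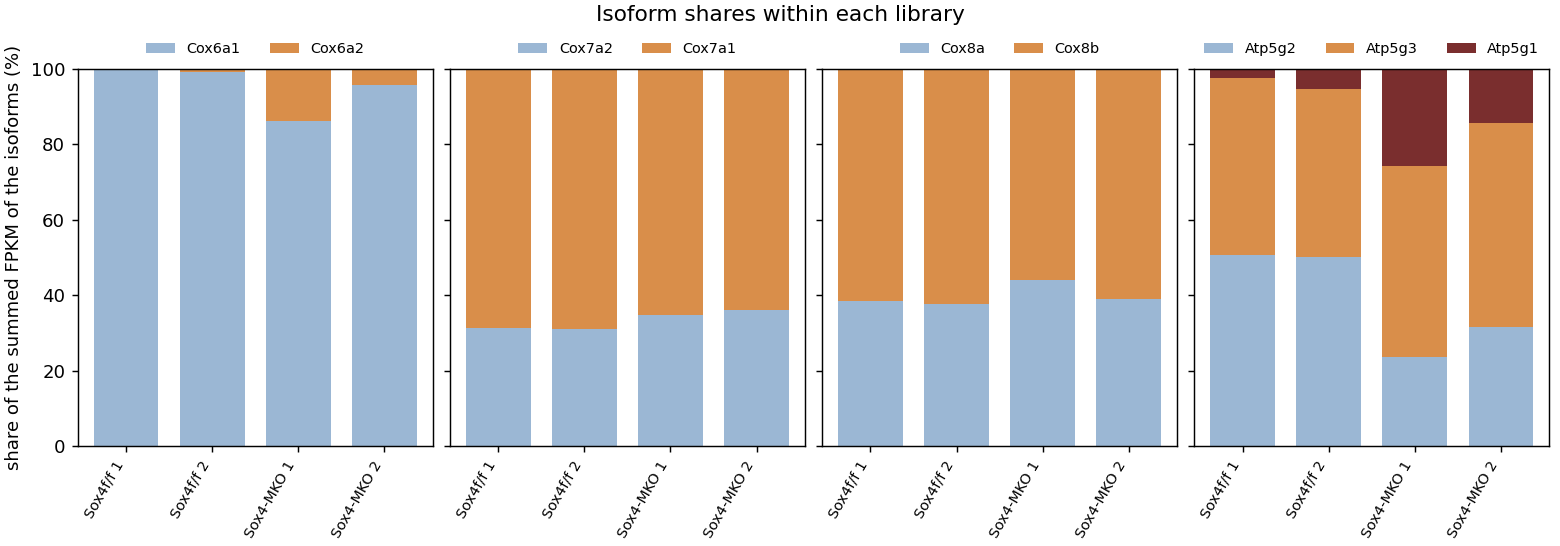
Share of each isoform in the summed FPKM of its pair or trio, in percent, with 1 bar for each of the 4 libraries, for subunits VIa, VIIa and VIII of complex IV and subunit c of complex V. The muscle-type forms Cox7a1 and Cox8b take 56.0% to 69.0% of their pairs in every library, Cox6a2 reaches 13.8% and 4.24% in the libraries labelled Sox4-MKO 1 and 2, and Atp5g1 reaches 25.7% and 14.3% there.

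In complex V, 14 of 17 members had a lower mean in the libraries labelled Sox4-MKO, and the median log2 fold change was -0.34. The calls were 6 lower and 2 higher, against 8.28% and 7.95% of all rows. The genotypes overlapped in 5 of 17 members, and in 6267 of all 12877 rows. They had done so in 1 of 9 of complex III and 0 of 16 of complex IV, and this difference was not tested. Atp5b, the catalytic beta subunit of the F1 head and the gene of highest level among all members, was at 4992 and 5178 FPKM in the Sox4f/f mice and 3957 and 2919 FPKM in those labelled Sox4-MKO (-0.58 ± 0.20, adjusted p = 0.272). It stands so near the top of each library that quantile normalization set its difference to 0. Atp5d, the delta subunit of the central stalk, was at 893 and 919.7 against 713 and 540.3 FPKM (-0.55 ± 0.17, adjusted p = 0.255), and Atp5e, the epsilon subunit beside it, at 1300 and 1189 against 983 and 828 FPKM (-0.46 ± 0.15, adjusted p = 0.255). All of these were called lower, and so were Atp5o, Atp5h and Atp5j2.

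Several other genes of the F1 head, the stalks and the membrane part were not called. Atp5a1, the alpha subunit that alternates with beta in the head, was at 1431 and 1459 against 1300 and 966 FPKM and was not called (-0.37 ± 0.18, adjusted p = 0.392). The gamma subunit gene Atp5c1 had a log2 fold change of -0.035, the membrane subunit gene Atp5mpl one of -0.012, and both overlapped. Atp5j, the coupling factor of the peripheral stalk, was at 257 and 232 against 308 and 212 FPKM (0.064 ± 0.21, adjusted p = 0.898). Its highest and its lowest value both came from libraries labelled Sox4-MKO, and its sign turned to -0.20 without the library labelled Sox4-MKO 1.

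Subunit c, which forms the rotating ring in the membrane, is encoded by 3 genes whose mature proteins are identical. Atp5g1 (GRCm38, chr11:96068852-96075670, minus strand) was at 12.4 and 28.3 FPKM in the Sox4f/f mice and at 286 and 88.6 FPKM in those labelled Sox4-MKO (3.02 ± 0.68, adjusted p = 0.214). Atp5g3 (chr2:73908447-73911326, minus strand) was at 241 and 236 against 568 and 334 FPKM (0.87 ± 0.27, adjusted p = 0.255). Both were called higher, with the library labelled Sox4-MKO 1 above the other by a wide margin. Atp5g2 was at 259 and 265 against 262 and 196 FPKM, overlapped, and was not called (-0.21 ± 0.17, adjusted p = 0.574), and with equal sums its log2 fold change was 0.0054. The share of Atp5g1 in the trio was 2.42% and 5.34% in the Sox4f/f mice and 25.7% and 14.3% in the libraries labelled Sox4-MKO, and that of Atp5g3 was 47.0% and 44.6% against 50.9% and 54.0%. Neither share overlapped, with the exact permutation p of 0.333 that is the smallest possible.

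**Figure D3:**
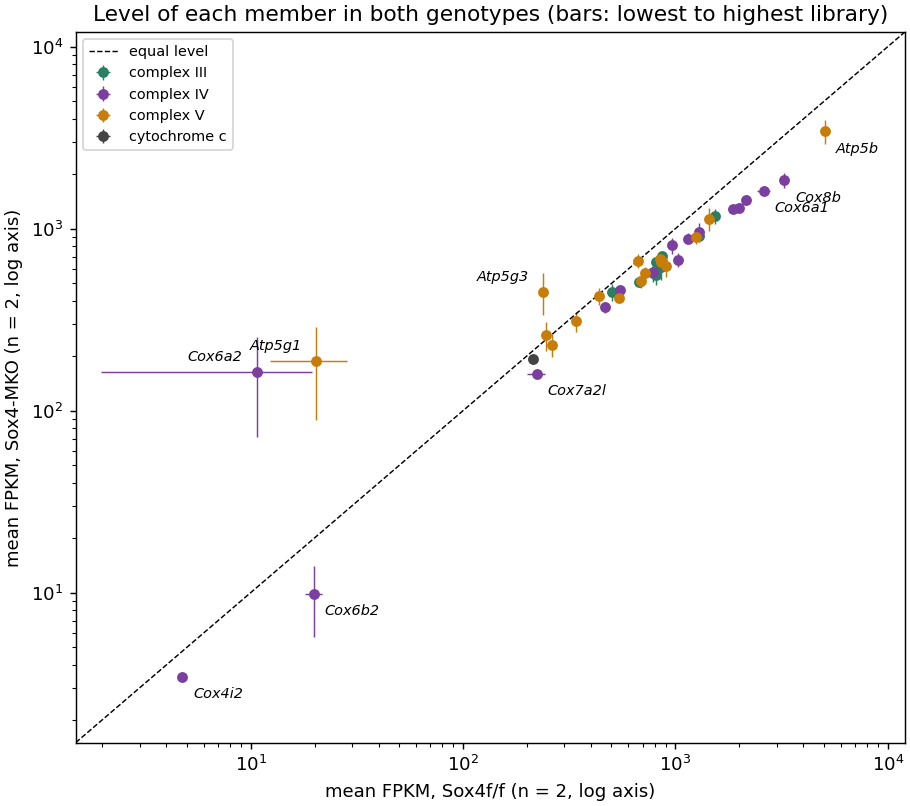
Mean FPKM of each of the 43 members in the libraries labelled Sox4-MKO (vertical, n = 2) against the mean in Sox4f/f (horizontal, n = 2), both on log axes, with bars from the lowest to the highest library and colours by complex. Most members lie just below the dashed line of equal level, Cox6a2, Atp5g1 and Atp5g3 lie above it, and Atp5b is the gene of highest level at 5085 and 3438 FPKM.

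Of the 3 members that were called higher, Cox6a2 and Atp5g1 were ranked across the libraries as the skeletal muscle genes were. Relative to Sox4f/f mouse 1, the summed level of the 12 skeletal muscle genes was 3.74 in Sox4f/f mouse 2, 70.8 in the library labelled Sox4-MKO 1 and 12.3 in the library labelled Sox4-MKO 2. For Cox6a2 these ratios were 9.82, 129 and 36.4, and for Atp5g1 they were 2.28, 23.1 and 7.15. Both genes thus followed the order of the muscle genes in all 4 libraries, including the 2 Sox4f/f mice. For Atp5g3, which was lowest in Sox4f/f mouse 2, the levels relative to that library were 1.02 in Sox4f/f mouse 1, 2.41 in the library labelled Sox4-MKO 1 and 1.42 in the library labelled Sox4-MKO 2.

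Per 100 FPKM of the skeletal muscle genes, Cox6a2 was at 0.782 and 2.06 FPKM in the Sox4f/f mice and at 1.42 and 2.31 FPKM in those labelled Sox4-MKO. Measured in this way, the genotypes overlapped. Atp5g1 was at 4.89 and 2.99 against 1.60 and 2.83 FPKM per 100 FPKM, and both values labelled Sox4-MKO lay below the others, the opposite of the order by FPKM. All 12 skeletal muscle genes were above 0 in every library. In 11 of them both libraries labelled Sox4-MKO lay above both others, as in 21.7% of all rows. The same was true of 6 of 6 slow muscle genes, whose sum was 7.97 and 46.4 FPKM against 1625 and 393 FPKM. The part of muscle RNA in the result for Cox6a2, Atp5g1 and Atp5g3 was not tested further, and Myf5-Cre acts in the muscle lineage too.

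The part of muscle RNA in the levels of the members that were lower was not tested. This holds for all of them, not only for Cox8b and Cox7a1, forms that skeletal muscle is also known to express. Among brown adipocyte markers, 5 of 6 were lower without overlap, as were 29.6% of all rows tested. The 6 summed to 3913 and 3909 FPKM against 1822 and 2238 FPKM, and the part of this in the result was not tested. When the libraries were rescaled without the mitochondrially encoded genes, Ucp1 and the skeletal muscle genes, a scaling chosen after the data were seen, 37 of 43 members were lower in mean and the median was -0.28.

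**Figure D4:**
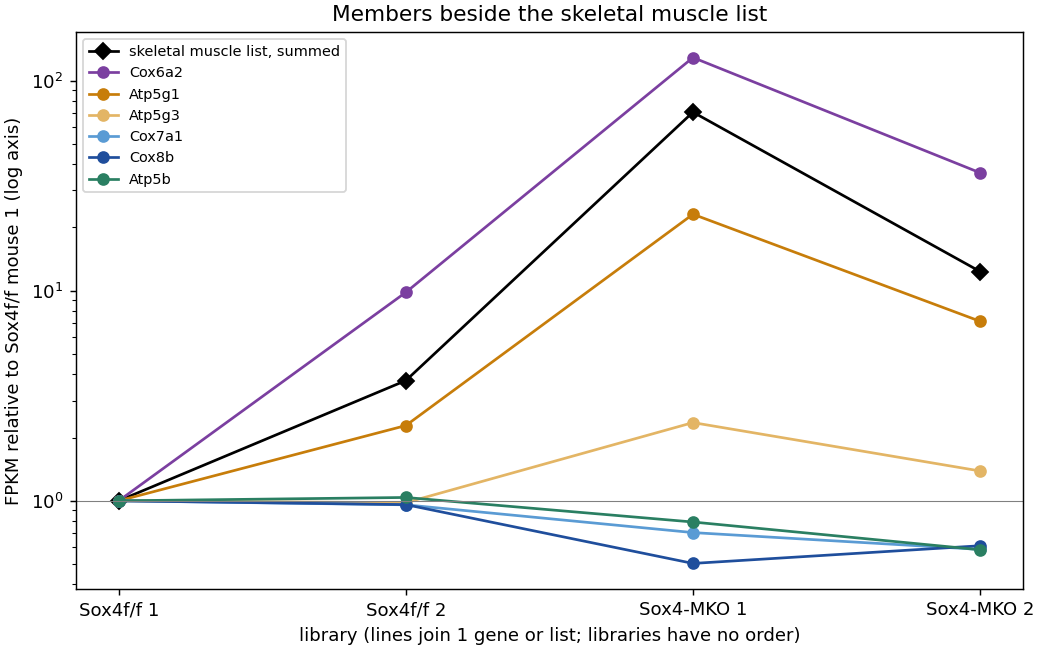
FPKM relative to Sox4f/f mouse 1, on a log axis, of 6 members and of the summed skeletal muscle list in each of the 4 libraries, which have no order. Cox6a2 and Atp5g1 peak at 129 and 23.1 in the library labelled Sox4-MKO 1, where the muscle list is at 70.8, while Cox8b, Cox7a1 and Atp5b lie below 1 in both libraries labelled Sox4-MKO.

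The 2 libraries labelled Sox4-MKO were not alike. In 37 of 43 members the level was lower in mouse 2 than in mouse 1, with a median ratio of 0.842. Over all rows tested this held for 7890 of 12877, and the median ratio was 0.926. In complex V this held for 17 of 17 members, with a median ratio of 0.777, in complex III for 8 of 9 with 0.829, and in complex IV for 11 of 16 with 0.900. The others were Cox8b, Cox6a1, Cox6c, Cox7a2l, Cox6b2 and Uqcrh. The 2 Sox4f/f mice were closer to each other, with a median ratio of 1.01 and 18 of 43 members lower in mouse 2 (6732 of all 12877 rows). Measured from the Sox4f/f mean, the median deviation of the members was -0.29 in the library labelled Sox4-MKO 1 and -0.46 in the library labelled Sox4-MKO 2. Without mouse 1 of the Sox4f/f group, 38 of the 43 members were still lower in mean, with a median log2 fold change of -0.40. Without the library labelled Sox4-MKO 1, 40 were lower, with a median of -0.46. Without the library labelled Sox4-MKO 2, 35 were lower and 8 higher, with a median of -0.29.

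Most genes of the other complexes of the chain were lower as well. Over all 12877 rows tested, 7206 were lower in mean, 8.28% were called lower and 29.6% were lower without overlap. Of 38 subunit genes of complex I, which feeds electrons from NADH into the chain, 38 were lower in mean and 23 were called, and their median log2 fold change was -0.43. Of the 4 subunit genes of complex II, which is also an enzyme of the citric acid cycle, 4 were lower and 3 were called, with a median of -0.48. Of 9 regulators of respiratory chain genes, 7 were lower and 3 were called lower, with a median of -0.18. Among them the coactivator Ppargc1a was at 48.2 and 22.4 against 13.2 and 14.2 FPKM and its relative Ppargc1b at 36.0 and 36.3 against 14.7 and 17.6 FPKM. The nuclear receptor Esrra was at 88.7 and 80.4 against 63.8 and 54.2 FPKM. In all 3 the genotypes did not overlap. Tfam, the factor that packages and transcribes mitochondrial DNA, was at 17.1 and 15.2 against 15.5 and 19.4 FPKM, and Nrf1 at 6.43 and 7.04 against 4.27 and 7.69 FPKM, and both overlapped. Gabpb1, a subunit of the ETS factor GABP, went the other way without overlap, at 5.55 and 3.91 against 5.57 and 6.67 FPKM, and was not called.

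Partner subunits encoded in mitochondrial DNA could not be compared. Of the 6 such genes of complexes III to V, mt-Co1, mt-Co3, mt-Atp6 and mt-Atp8 were listed at 0 in all 4 libraries, and mt-Cytb and mt-Co2 were above 0 only in Sox4f/f mouse 1. A value of 0 for genes that every cell uses can be a failed estimate. How fragments with more than one place in the genome were counted is not given in the sources used here, so the level of a member with near-identical copies elsewhere, such as the dropped pseudogenes, is uncertain.

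Promoter sequence was available for 33 of the 43 members in RefSeq (GRCm38.p6). The window from 250 bases before to 50 bases after the start was searched on both strands for 4 motifs of factors known for respiratory chain genes. The NRF1 motif GCGCATGCG was found in 7 members (21.2%), against 1.95% of all 27025 genes with a promoter and 4.12% of the 9705 of them tested here. The ETS motif CCGGAAG was found in 11 members (33.3%), against 9.93% of all and 20.1% of tested genes. The YY1 motif AAGATGGCG was in 2 members (6.06%, against 1.64% of all and 3.66% of tested genes). The ERR motif TCAAGGTCA was in 1 (3.03%, against 0.466% of all and 0.309% of tested genes). Overlapping matches in a promoter were counted once. These shares describe letters, not binding, and the difference between members and other genes was not tested.

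Promoters of 4 members are shown, as the 250 bases before the start (all on the minus strand), because these genes differed in how they moved. Cycs (chr6:50566570-50566819) was not called and holds the NRF1 motif. Atp5g3 (chr2:73911327-73911576) was called higher and holds the ERR motif. Uqcr11 (chr10:80406822-80407071) was called lower and holds the ETS motif, and Cox8b (chr7:140900447-140900696), also called lower, holds none of the 4 in these bases. Capitals mark the motifs, which begin 61, 52 and 66 bases before the start in Cycs, Atp5g3 and Uqcr11, on the reverse strand in the first 2 genes and on the strand shown in the last.
Cycs: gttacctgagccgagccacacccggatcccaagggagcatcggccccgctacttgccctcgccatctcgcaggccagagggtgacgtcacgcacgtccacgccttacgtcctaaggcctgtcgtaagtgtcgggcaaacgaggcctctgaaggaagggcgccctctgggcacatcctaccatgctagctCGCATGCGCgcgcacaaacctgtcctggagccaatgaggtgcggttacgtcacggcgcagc
Atp5g3: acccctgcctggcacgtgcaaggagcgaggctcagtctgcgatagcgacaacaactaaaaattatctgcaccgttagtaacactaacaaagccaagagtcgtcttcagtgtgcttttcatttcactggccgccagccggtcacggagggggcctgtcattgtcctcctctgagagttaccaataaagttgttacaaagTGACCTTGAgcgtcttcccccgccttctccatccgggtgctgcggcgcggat
Uqcr11: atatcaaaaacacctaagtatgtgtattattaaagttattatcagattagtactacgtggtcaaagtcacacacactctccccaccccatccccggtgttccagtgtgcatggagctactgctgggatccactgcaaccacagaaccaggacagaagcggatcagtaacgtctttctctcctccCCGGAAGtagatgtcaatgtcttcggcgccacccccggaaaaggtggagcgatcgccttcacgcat
Cox8b: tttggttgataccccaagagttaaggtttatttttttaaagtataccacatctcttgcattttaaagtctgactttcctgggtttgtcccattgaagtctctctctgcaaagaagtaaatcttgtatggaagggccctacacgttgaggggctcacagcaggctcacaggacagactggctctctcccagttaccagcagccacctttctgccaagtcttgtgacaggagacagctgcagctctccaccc
NRF1 motifs were thus present both in genes called lower (Cox6a1 and Uqcr11) and in genes not called (Cycs, Atp5g2, Atp5k, Atp5l and Uqcrc1). In Uqcr11 the motif spans the start and so is not among the bases shown.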

How the data were processed

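For each of the 4 libraries the authors deposited FPKM by gene symbol, in 55387 rows. The submitters' processing notes name Cufflinks 2.1.1, Cuffdiff and mm10. The aligner and annotation are not given in the sources used here. The sample labels and the methods of the study differ on RNA extraction and library kit.

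Groups and mouse numbers came from the sample labels. The members and all gene lists were chosen with earlier results of these data known, and so were the tests. Values were used as deposited. log2(FPKM + 1) of the 12877 rows with a mean above 1 FPKM in at least one genotype was fitted with limma 3.58.1 in R 4.3.3, with genotype as the only term and a trended prior, two-sided, and Benjamini-Hochberg adjustment over all rows. Fold changes on this scale understate those of low genes. Each list is described by counts and medians, without a set test. Genes named with values are all isoform pairs, Cyc1, Cycs, Cox7a2l, the 3 lowest and 3 highest log2 fold changes and the highest level of each complex, and all members called higher. Atp5a1, Atp5c1, Atp5mpl and other members named with a fold change only were added after their values were seen.

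Depth (12100000 to 16300000 fragments) was estimated from the lowest values of genes with 1 transcript of at least 1500 bases in GENCODE M21, where 1 fragment is worth 0.0613 to 0.0824 FPKM × kb, and fragment numbers of genes are rough for that reason. Coordinates are from GENCODE M21 (43 of 43 members matched, Atp5o to 2 genes), promoters from RefSeq. Alternatives were 4 other scalings, limits of 0.1 and 5 FPKM and none, pseudocounts of 0.1 and 0.01, a constant prior and no moderation, a correction for GC content and length by loess with a span of 0.5, a replicate block and leaving out each library. A scaling without muscle genes and the shares of Cox6b2, Atp5g1 and Atp5g3 were added after the data were seen. Matplotlib 3.10.9 drew the figures.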

Additional observations from a re-analysis of the deposited data

How the results depend on the processing

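The number of members called lower at an unadjusted p under 0.05, 21 as reported, was 5 with equal sums of FPKM, 2 after quantile normalization, 32 with no filter, and 10 both without moderation and with the replicate block, and leaving out 1 library gave 0 to 28 (0 without Sox4f/f mouse 1, 3 without Sox4f/f mouse 2, and in the other genotype 28 without mouse 1 and 13 without mouse 2). The number called higher, 3 as reported (1024 of all 12877 rows), was 0 without moderation (553 of all 12877 rows). The adjusted calls were 0 in the main analysis and 29 with no filter, where rows at 0 in every library enter the estimate of the spread and 1709 of 55387 rows were called. Calls with 1 library left out are not given, because a genotype left with 1 library has no spread of its own.

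The median log2 fold change of all members was -0.18 with equal sums, -0.17 after quantile normalization, -0.50 after correction for GC content and length, -0.28 without mitochondrially encoded, Ucp1 and skeletal muscle genes, and -0.46 to -0.29 with 1 library left out. For complex III it was -0.19 with equal sums, -0.24 after quantile normalization and -0.52 to -0.30 with 1 library left out. For complex IV these values were -0.24, -0.23 and -0.52 to -0.42, with -0.39 when mitochondrially encoded genes and Ucp1 were left out of the sum, -0.57 after correction for GC content and length, and -0.35 without the skeletal muscle genes as well. For complex V they were -0.12, -0.070 and -0.43 to -0.21. The cause of these shifts was not tested. The sum of FPKM holds mt-Cytb at 39178 FPKM in Sox4f/f mouse 1 only. With equal sums 330 rows of all were called lower and 1877 higher, against 1066 and 1024 as deposited, and without mitochondrially encoded genes and Ucp1 746 and 1322. With 1 library left out, the difference in share ranged from 3.80 to 13.3 percentage points for Cox6a2, from -4.81 to -3.58 for Cox7a1, from -5.87 to -0.951 for Cox8b and from 0.0036 to 0.034 for Cox4i2.

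Signs turned in 4 of the genes named by the rule, none of them called. Members added after their values were seen, such as Atp5c1 and Atp5mpl, were not followed in this way. With equal sums 33 of 43 members were lower in mean, against 39 as deposited, so signs turned in further members too. With equal sums Uqcrc2 was at 0.040, Atp5g2 at 0.0054 and Cycs at 0.064 on the log2 scale. Atp5g2 was at 4.8e-05 without Sox4-MKO mouse 2. Atp5j was at -0.028 after correction for GC content and length, at -0.010 without Sox4f/f mouse 2, and ranged from -0.20 (without Sox4-MKO mouse 1) to 0.33 with 1 library left out. The mouse numbers gave no pairing: deviations of same-numbered libraries had a correlation of -0.012 over 12877 rows and of -0.76 over the 43 members, and nothing in the labels ties the numbers together.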
